A study of Mus musculus with 24 samples.

Results

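*Spi1*, *Maf*, *Mef2a*, *Mef2c*, *Runx1*, *Cebpa*, *Cebpb* and *Cebpd* encode transcription factors that set up or maintain the microglial lineage. They were picked by gene symbol, and all 8 are among the 24411 genes of the deposited tables. The study profiled cultured mouse glia, purified early after birth and kept in serum-free medium, by bulk RNA-seq. It asked how microglia and astrocytes respond to activation and whether the *SOD1G93A* transgene, a mutant form of human *SOD1* used as a mouse model of amyotrophic lateral sclerosis, changes them. Values were analysed from 21 libraries, 3 in each of 7 conditions, with 2016139 to 11570122 reads on genes per library. A further 3 samples, *SOD1G93A* microglia without LPS, were not analysed here.

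Microglia were collected with magnetic beads by their surface protein Cd11b and grown in medium with TGF-β2, IL-34 and cholesterol. They were WT quiescent, WT treated with 50 ng/mL of the bacterial product LPS, or *SOD1G93A* treated with the same dose of LPS. Astrocytes were immunopanned by their surface protein HepaCAM, after depletion of microglia on CD45 and of endothelial and oligodendrocyte lineage cells. They were WT or *SOD1G93A*, either quiescent or activated by 3 ng/mL IL-1α, 30 ng/mL TNFα and 400 ng/mL C1q together. In the study the astrocytes came from the cortex and the microglia from the whole brain of slightly older pups. Age, region, isolation and medium thus differ along with the cell type and cannot be told apart from it. The labels do not say whether the 3 replicates of a condition are separate animals or cultures, so a p-value measures only the spread between these libraries.

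PU.1, the product of *Spi1*, opens enhancers in myeloid cells and works with RUNX1 and C/EBPα during the making of macrophages. In microglia PU.1 shares many enhancers with MEF2 and MAF factors, and MEF2C is known to hold back inflammatory responses. C/EBPβ and C/EBPδ are relatives of C/EBPα that inflammatory signals induce in many cell types, where they switch on genes of cytokines and acute-phase proteins.

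Levels were compared across conditions as CPM, the reads of a gene scaled to a common total of reads on genes, as a description with no test. *Spi1* was at 498, 454 and 484 CPM in the 3 quiescent WT microglia libraries and at 4.96, 8.52 and 12.2 CPM in the 3 quiescent WT astrocyte libraries. It was the member with the widest gap between the cell types. The ratio of the mean CPM in quiescent WT microglia to that in quiescent WT astrocytes was 55.9 for *Spi1*, 33.5 for *Runx1* and 31.0 for *Cebpa*. It was 9.04 for *Mef2c*, 8.36 for *Cebpb*, 7.31 for *Mef2a*, 4.16 for *Maf* and 3.18 for *Cebpd*. With size factors over all libraries the gaps were wider, as for *Spi1* at 566 against 7.07 and *Mef2c* at 313 against 23.9. So between the quiescent conditions *Spi1*, *Runx1* and *Cebpa* had the largest ratios of the 8, and *Cebpd* the smallest. The astrocyte side held few reads, as low as 10 for *Spi1* and 9 for *Runx1* in a library. The place of *Runx1* depends on the astrocyte state. In activated WT astrocytes *Runx1* was at 27.1% of quiescent WT microglia, above *Maf* at 17.6%, *Mef2a* at 16.7% and *Mef2c* at 11.1%.

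The highest mean of the 7 conditions was in microglia for 7 of the 8 members. The exception was *Cebpd*, at 289 ± 13.4 CPM (SD, n = 3) in activated WT astrocytes. *Spi1*, *Mef2a*, *Mef2c*, *Runx1* and *Cebpa* had their highest mean CPM in quiescent WT microglia, *Cebpb* in WT LPS microglia and *Maf* in *SOD1G93A* LPS microglia. With size factors over all libraries instead of CPM, the top condition of *Spi1* was WT LPS microglia (612, against 566 in quiescent WT microglia) and that of *Runx1* was *SOD1G93A* LPS microglia (305, against 282). In the order of the 3 microglia conditions, *Spi1* at 479, 447 and 425 CPM overlapped between neighbours. *Mef2a*, *Mef2c* and *Cebpa* in quiescent WT microglia lay above both LPS conditions without overlap, and the LPS conditions overlapped each other. In the order of the astrocyte conditions, *Spi1* overlapped between all neighbours, from 12.5 CPM in quiescent *SOD1G93A* to 7.19 CPM in activated *SOD1G93A* astrocytes. *Runx1*, *Cebpb*, *Cebpd*, *Cebpa* and *Maf* fell into a quiescent and an activated pair of astrocyte conditions that did not overlap, with the activated pair higher except for *Maf*. The gap was narrow for *Cebpa* (lowest activated 15.65, highest quiescent 15.12 CPM) and *Maf* (lowest quiescent 12.4, highest activated 12.1 CPM). For *Cebpb* the WT activated astrocytes, at 96.8 ± 3.23 CPM, overlapped quiescent WT microglia, at 94.7 ± 4.28 CPM. With size factors over all libraries they were at 79.3 ± 3.39 and 112 ± 4.41, so that overlap depends on the scaling.

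**Figure D1:**
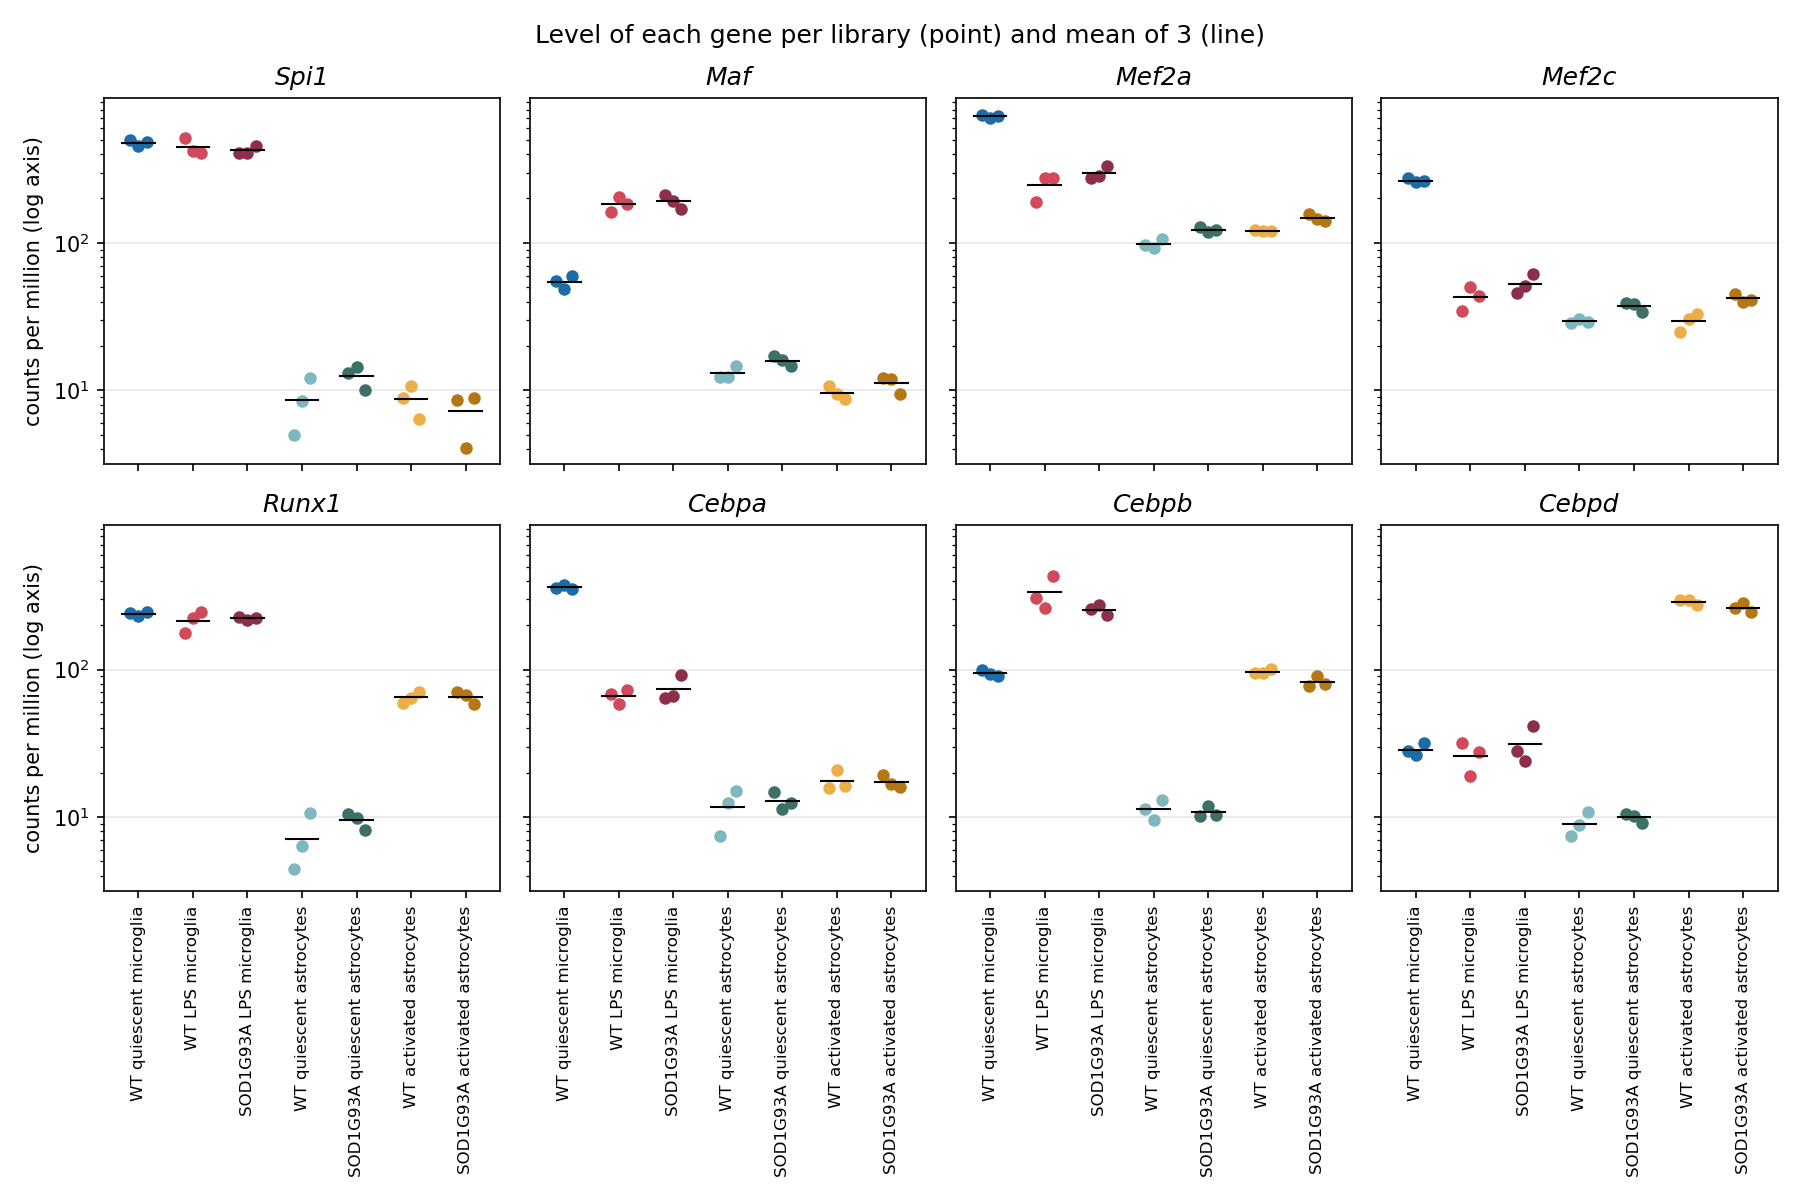
CPM on a log axis in each of 21 libraries (points) with the mean of 3 (lines), for the 8 genes in the 7 conditions. *Spi1* lies between 406 and 514 CPM in all 9 microglia libraries and between 4.07 and 14.3 CPM in all 12 astrocyte libraries, whereas *Cebpd* is highest in the activated astrocytes.

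The cultures carried the markers of their labelled cell types, and markers of other types too. Oligodendrocyte lineage markers summed to 3149, 3063 and 2972 CPM in quiescent and 1128, 1163 and 1102 CPM in activated WT astrocytes. Neuron markers summed to 965, 997 and 769.8 CPM in the quiescent ones. The part of these other types in the members' levels and changes was not tested. All 22 genes of a microglia marker list had more than 3 reads in a library of quiescent WT microglia, and together they held 21081, 22292 and 20950.0 CPM in its 3 libraries, with the lysosomal gene *Laptm5* the most abundant. The 15 astrocyte markers together held 5956, 6440 and 7348 CPM in quiescent WT astrocytes, with the glutamate transporter gene *Slc1a3* the most abundant. The same astrocyte markers held 187, 170.2 and 187 CPM in quiescent WT microglia, where the connexin gene *Gjb6* was at 0 reads. Microglia markers held 489, 632 and 741 CPM in quiescent WT astrocytes, with none at 0 in all 3 libraries. Their most abundant gene there was *Sall1*, a repressor that marks microglia among brain macrophages, at 181 CPM or 149% of its level in quiescent WT microglia.

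Members and microglia markers in the astrocyte cultures are set side by side as a percent of their levels in microglia. These percents rest on CPM and would be lower with size factors over all libraries. The summed microglia markers of quiescent WT astrocytes were 2.28%, 2.95% and 3.46% of the mean in quiescent WT microglia. *Spi1* was at 1.04%, 1.78% and 2.55% in the same 3 libraries, *Runx1* at 1.87%, 2.65% and 4.43%, and *Cebpa* at 2.06%, 3.42% and 4.18%. The median marker gene was at 2.12%, and *Sall1* weighs on the sum. *Spi1* lay below the summed markers in all 3 libraries. *Cebpb* at 11.96%, *Mef2c* at 11.1%, *Mef2a* at 13.7%, *Maf* at 24.0% and *Cebpd* at 31.5% lay above the summed markers. What part of any member's reads in astrocyte cultures came from microglia was not tested. In bulk samples fewer cells of a type and less RNA per cell cannot be told apart.

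Levels of different genes can be set side by side only per length, here as CPM per kilobase of exon. That length counts every annotated exon of a gene, used here or not, so the order between genes depends on it. In quiescent WT microglia the order was *Spi1* at 178, *Cebpa* at 137, *Cebpb* at 63.0, *Mef2a* at 49.1, *Runx1* at 19.8, *Mef2c* at 16.8, *Cebpd* at 7.65 and *Maf* at 6.62 CPM per kilobase. Only *Cebpd* (7.01 to 8.46) and *Maf* (5.90 to 7.27) overlapped among neighbours in that order. In WT LPS microglia *Cebpb* at 222 stood beside *Spi1* at 166 CPM per kilobase, with overlapping libraries (173 to 289 and 151 to 191), and *Mef2c* was last at 2.72. In activated WT astrocytes *Cebpd* at 77.2 and *Cebpb* at 64.4 CPM per kilobase were followed at a distance by *Mef2a* at 8.21.

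Shares within a family, computed inside each library, do not depend on how libraries are scaled to each other. Of the summed length-scaled level of *Cebpa*, *Cebpb* and *Cebpd*, *Cebpa* made up 65.0%, 67.1% and 65.9% in quiescent WT microglia and 10.8%, 11.1% and 8.50% in WT LPS microglia. *Cebpb* made up 31.5%, 29.6% and 30.0% in the quiescent and 85.6%, 86.4% and 89.2% in the LPS libraries. The leading C/EBP gene thus switched from *Cebpa* to *Cebpb*, while the sum of the 3 genes was 208 ± 4.82 and 254 ± 63.0 CPM per kilobase (SD, n = 3). In astrocytes that sum was 14.4 ± 2.55 quiescent and 148 ± 1.97 activated, both WT, and *Cebpd* made up 16.7% and 52.1% of it.

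Of *Mef2a*, *Mef2c* and *Mef2d*, *Mef2a* led with 55.9% in quiescent WT microglia and *Mef2d* with 60.2% in WT LPS microglia, while *Mef2c* made up 19.2% and 5.54%. Which MEF2 gene leads depends on the exon lengths used, 14681 bases for *Mef2a* and 5985 for *Mef2d*, counted over all annotated transcripts. *Runx1* led its family with 69.6% in quiescent and 75.9% in LPS-treated WT microglia. *Spi1* made up 100% and 98.4% of its family with *Spib* and *Spic*.

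**Figure D2:**
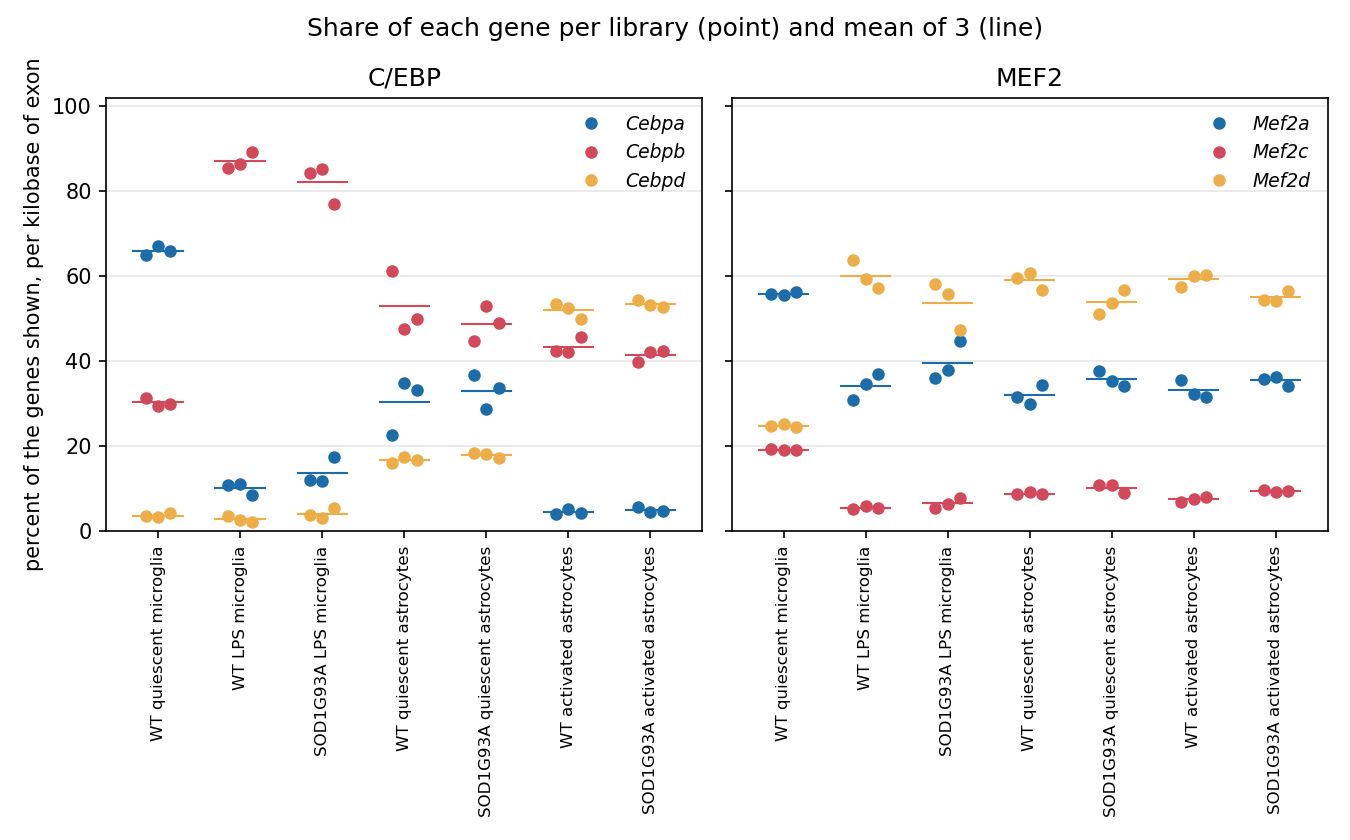
Percent of the summed level per kilobase of exon that each gene made up, in each library (points) with the mean of 3 (lines), for the C/EBP and MEF2 genes shown in the 7 conditions. *Cebpa* has 66.0% of the C/EBP sum in quiescent WT microglia and 10.1% in WT LPS microglia, and *Mef2c* has 19.2% and 5.54% of the MEF2 sum.

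LPS against no treatment in WT microglia asks which genes respond to a bacterial signal. LPS raised *Cebpb* and *Maf* and lowered *Mef2c*, *Cebpa* and *Mef2a*. *Spi1*, *Runx1* and *Cebpd* did not pass the test. A gene was called when its adjusted p was under 0.001 and its fold past 2, with limma on the log2 of the normalized counts, over the 10866 genes with a mean of at least 10. This called 5 of the 8 members, against 20.8% of all genes tested. The normalized count is the reads divided by a size factor of the library within its table.

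*Spi1*, the founding factor of the lineage, was at 2568, 2434 and 2543 normalized counts in quiescent and 3063, 2638 and 2470.2 in LPS libraries. The groups overlapped, with a log2 fold change of 0.11 ± 0.09 (SE, limma adjusted p = 0.333). *Runx1*, its partner in blood formation, was at 1242, 1239 and 1282 against 1050.2, 1399 and 1500.1, with overlap and a log2 fold change of 0.05 ± 0.12 (limma adjusted p = 0.736). The sign of both depends on the scaling. With library totals in place of size factors, an alternative chosen after seeing the data, *Spi1* was at -0.11 and *Runx1* at -0.16. That scaling moved the median log2 fold change of all genes from 0.00 to -0.21, so both genes stayed above the median gene. With quantile normalization *Spi1* was at -0.19 and *Runx1* at -0.18, below a median of -0.05. Neither gene thus has a settled direction.

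*Cebpa*, the C/EBP gene of myeloid differentiation, was at 1856, 2000.7 and 1844 normalized counts in quiescent and 405, 368 and 441 in LPS libraries. Every LPS library lay far below every quiescent one. The log2 fold change was -2.23 ± 0.09 (limma adjusted p = 1.15e-08).

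*Mef2c* was at 1419, 1382 and 1369.9 in quiescent and 206, 313 and 267 in LPS libraries. It fell the most of the members, with a log2 fold change of -2.42 ± 0.14 (limma adjusted p = 1.16e-07) and no overlap. *Mef2a*, a widely expressed MEF2 gene, was at 3816, 3749 and 3798 against 1135, 1734.5 and 1673, with a log2 fold change of -1.35 ± 0.14 (limma adjusted p = 1.6e-05). Its LPS libraries lay below the quiescent ones, with replicate 1 lowest, as for *Mef2c*. That library also stood apart over all genes, its chi-square against the other WT LPS replicates being 14.0 and 12.8 per degree of freedom, and theirs 1.63. In *SOD1G93A* LPS microglia replicate 3 stood apart, with 15.7 and 20.3 against 2.32. The 5 called members kept their calls without either library.

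*Maf*, which encodes a large MAF factor, was at 284, 261 and 315 normalized counts in quiescent and 970.1, 1292 and 1125 in LPS libraries. All 3 LPS libraries lay above all 3 quiescent ones, with a log2 fold change of 1.97 ± 0.12 (limma adjusted p = 2.16e-07). *Cebpb*, the inflammation-induced C/EBP gene, was at 513, 503 and 478 against 1829, 1634 and 2642, with a log2 fold change of 2.00 ± 0.15 (limma adjusted p = 1.28e-06). Its LPS libraries were higher without overlap, with replicate 3 well above the others. *Cebpd* was at 144, 141 and 167 against 189, 119 and 168, with a log2 fold change of 0.05 ± 0.17 (limma adjusted p = 0.807). Its groups overlapped, and with library totals its log2 fold change was -0.16.

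**Figure D3:**
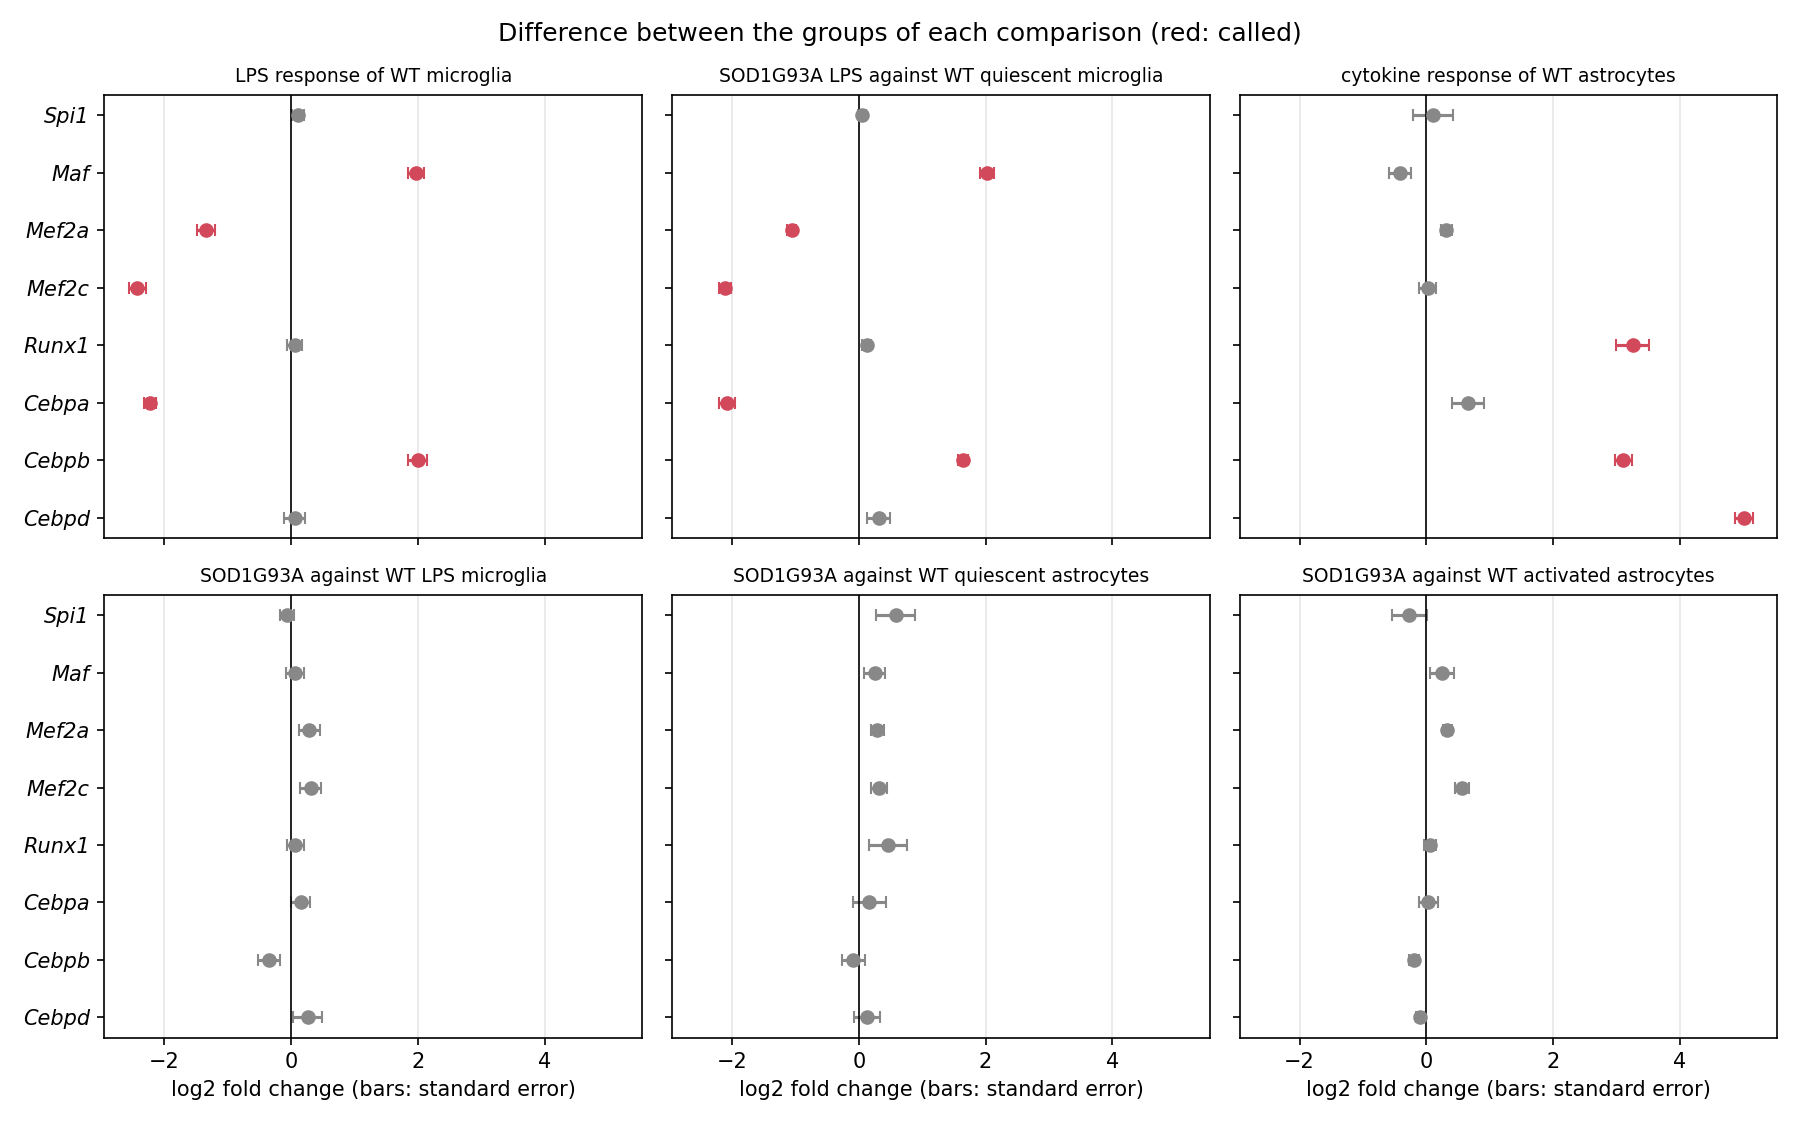
Log2 fold change (points) with its standard error (bars) of the 8 genes in 6 comparisons, 3 libraries against 3 in each. Called genes are red, 5 in each of the first 2 panels, 3 in the astrocyte cytokine panel and 0 in the 3 panels of *SOD1G93A* against WT. In the LPS panels *Spi1* and *Runx1* change sign with library totals as the scaling.

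Some relatives of the members moved with them after LPS in WT microglia. *Ddit3*, a C/EBP relative induced by cell stress, rose with a log2 fold change of 2.95, and *Maff*, a small MAF gene, with 1.66. The small MAF gene *Mafk* rose with 1.04, but ended under 2-fold with quantile normalization (0.95), with library totals (0.83), without quiescent replicate 2 (0.96) and without LPS replicate 2 (0.99). *Spic*, a PU.1 relative of red pulp macrophages, had 0 reads in all 3 quiescent libraries and 53.6, 44.3 and 41.7 normalized counts after LPS. Against a floor of 3 reads over the quiescent group, with the reads of each group pooled, it was at least 51.6-fold higher (limma adjusted p = 1.01e-06).

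Of 32 other factors of the microglial and macrophage lineages, 26 were tested and 5 rose and 5 fell, with a median log2 fold change of 0.09 beside 0.00 over all genes. The largest rises were *Nr4a1*, an immediate-early nuclear receptor gene, at 4.82 and *Irf4*, an interferon regulatory factor gene, at 3.79. The largest falls were *Hhex*, a homeobox gene, at -2.51 and *Bhlhe41*, a helix-loop-helix repressor gene, at -2.49. *Irf8*, a PU.1 partner needed for microglia, was at 3386, 3503 and 3342 against 1880.0, 1808 and 1792 normalized counts. All LPS libraries were lower, but the log2 fold change of -0.90 ± 0.07 was under 2-fold (limma adjusted p = 1.9e-06). With quantile normalization and with library totals it was past 2-fold, at -1.14 and -1.12. *Sall1* fell with a log2 fold change of -1.13 ± 0.12 (limma adjusted p = 1.52e-05), which was -0.998 and just under 2-fold without LPS replicate 1.

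Of 18 partners and brakes of the members, which bind, modify or degrade them, 16 were tested and 2 rose and 3 fell, with a median of -0.40. *Fos*, an AP-1 gene, rose with 2.60 and *Mapk7*, the kinase gene upstream of MEF2, with 1.36. *Cbfa2t3*, a co-repressor gene of the RUNX1 partner family, fell with -3.48 and *Trib1*, whose product marks C/EBPα for degradation, with -1.57. Of 9 receptor and SMAD genes for the factors in the microglia medium, 0 rose and 5 fell, with a median log2 fold change of -1.55. The largest falls were the TGF-β receptor genes *Tgfbr1* at -2.45 and *Tgfbr2* at -2.19.

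Known targets of the members moved in different ways. The lists were chosen with earlier results of these data known, so their counts are descriptions, beside 20.8% of all genes called. Of 22 PU.1 target genes, 4 rose and 5 fell, with a median log2 fold change of -0.16. *Cybb*, an NADPH oxidase gene, rose with 2.55 and the LPS co-receptor gene *Cd14* with 2.47, while the receptor gene *Trem2* fell with -3.56 and the kinase gene *Fgr* with -2.19. Of 20 C/EBP target genes, 18 were tested and 16 rose and 1 fell, with a median of 5.94. The nitric oxide synthase gene *Nos2* at 7.65 and the acute-phase gene *Saa3* at 7.58 rose the most, and the nuclear receptor gene *Pparg* fell with -2.40. The part of C/EBP factors in these changes was not tested. Of 6 MEF2 target genes, *Nr4a1* rose with 4.82 and the GTPase gene *Rhob* fell with -1.48, with a median of -0.42. The MEF2 list shares 3 genes with the other lineage factors and 2 with the partners, and *Cd14* is in both the PU.1 and the C/EBP list.

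Microglia markers moved with LPS as well. Of 22 genes, 0 rose and 15 fell, with a median log2 fold change of -1.54, and 8 of them are also on the PU.1 list. *Tmem119*, a surface protein gene of microglia, fell with -4.62 and the purinergic receptor gene *P2ry12* with -3.81. The summed level went from 21081, 22292 and 20950.0 CPM in quiescent to 8170, 7656.5 and 7635 CPM in LPS libraries, where the protease gene *Ctss* was the most abundant and none was at 0. The part of this shift in the members' changes was not tested.

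*SOD1G93A* against WT, both with LPS, asks whether the transgene alters the activated state. None of the 8 members and none of the 10679 genes tested, 0%, was called with limma. At an unadjusted p under 0.05 there were 0 members and 930 genes of all, and DESeq2 called 0 members and 2 genes and edgeR 0 and 0. The 930 became 581 to 1084 when 1 library was left out. The lowest adjusted p of a member was 0.586 for *Cebpb*. It was at 1816, 1620.5 and 2642 normalized counts in WT and 1599, 1669 and 1394 in *SOD1G93A* libraries, with overlap and a log2 fold change of -0.35 ± 0.18. The other members overlapped too, with log2 fold changes from -0.06 for *Spi1* to 0.31 for *Mef2c*. Of 149 genes tested over the lists, 0 were called with limma, DESeq2 or edgeR, and 28 had an unadjusted p under 0.05. *Irf8* was at 0.17 ± 0.12 (limma adjusted p = 0.646) and *Sall1* at 0.03 ± 0.14 (limma adjusted p = 0.963).

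*SOD1G93A* LPS against WT quiescent microglia changes genotype and treatment at once, so its differences cannot be split between them. It shares its quiescent libraries with the WT comparison and its LPS libraries with the genotype comparison. It called 5 members, against 15.7% of the 10921 genes tested. *Cebpa* was at 428, 431 and 586 normalized counts in the *SOD1G93A* LPS libraries and at 1970.0, 2126 and 1956 in the quiescent ones, with no overlap and a log2 fold change of -2.08 ± 0.12 (limma adjusted p = 1.46e-06). The log2 fold changes of the other called members were -2.12 for *Mef2c* and -1.06 for *Mef2a*, and 2.02 for *Maf* and 1.65 for *Cebpb*. *Spi1* at 0.05, *Runx1* at 0.12 and *Cebpd* at 0.31 were not called. With library totals *Spi1* was at -0.17 and *Runx1* at -0.10, and the median of all genes moved from 0.01 to -0.21. With quantile normalization they were at -0.21 and -0.12, with a median of -0.06. *Runx1* lay higher in all 3 LPS libraries in normalized counts and lower in all 3 in CPM.

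Among relatives of the members in that comparison, *Ddit3* rose with 2.43 and *Maff* with 1.91. *Spib*, a PU.1 relative of B cells and dendritic cells, had 0 reads in quiescent microglia and 29.3, 31.7 and 48.5 normalized counts in the *SOD1G93A* LPS libraries. It was at least 34.4-fold higher against the floor of 3 reads over the group, pooled in the same way (limma adjusted p = 1.81e-05). *Spib* was also read in WT LPS microglia, at 2.59, 1.57 and 2.57 CPM in the 3 libraries. The *SOD1G93A* LPS libraries were at 4.39, 4.84 and 7.67 CPM. *Spic* was at 57.4, 35.1 and 7.83 normalized counts in the *SOD1G93A* LPS libraries, against 0 in quiescent ones, and the 3 libraries differed widely. Its call was lost without any 1 of the quiescent replicates (adjusted p = 0.00296, 0.00359 and 0.00275 without replicates 1, 2 and 3), without LPS replicate 2 (adjusted p = 0.00504) and with edgeR (adjusted p = 0.0019). It was also lost with a pseudocount of 5 (limma adjusted p = 0.00206), quantile normalization (0.00133) and no intensity trend (0.00186), in a range of 7.94e-08 to 0.00504 over its alternatives.

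Over the lists in that comparison, 5 rose and 6 fell of 26 other lineage factors, 2 rose and 2 fell of 16 partners and brakes, and 0 rose and 5 fell of 9 receptor and SMAD genes. Of PU.1 target genes 3 rose and 4 fell of 22, of C/EBP target genes 15 rose and 1 fell of 18, of MEF2 target genes 1 rose and 2 fell of 6, and of microglia markers 0 rose and 15 fell of 22. The medians were 0.08, -0.37, -1.20, 0.04, 5.35, -0.51 and -1.29 in that order, beside 0.01 over all genes, of which 15.7% were called. *Nr4a1* rose with 4.22, *Fos* with 1.91, *Cybb* with 2.83, *Cd14* with 2.27, the cytokine genes *Il12b* with 7.49 and *Il1b* with 7.15. *Bhlhe41* fell with -2.23, *Trib1* with -1.49, *Tgfbr1* with -2.20, *Tgfbr2* with -1.68, *Trem2* with -3.18, the lysosomal gene *Laptm5* with -1.43, *Rhob* with -1.43, the receptor gene *Gpr34* with -4.26, *Tmem119* with -4.09 and *Sall1* with -1.10. *Irf8* was at -0.73 ± 0.09 (limma adjusted p = 0.000196) and under 2-fold.

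Some calls on these lists were lost under an alternative. *Irf4* at 3.51 lost its call without quiescent replicates 1, 2 or 3 (limma adjusted p = 0.00136, 0.00116 and 0.00138) and without LPS replicates 1 or 2 (0.00189 and 0.00201) and with no intensity trend (0.00123), in a range of 4.5e-10 to 0.00201. *Klf2*, a Krüppel-like factor gene, at -2.17 lost it without quiescent replicates 1, 2 or 3 (limma adjusted p = 0.00149, 0.0025 and 0.00242) and without LPS replicate 2 (0.0013) and with no intensity trend (0.00136), in a range of 5.53e-10 to 0.0025. *Cbfa2t3* at -3.14 lost it without quiescent replicates 1, 2 or 3 (limma adjusted p = 0.00282, 0.00221 and 0.00207), in a range of 8.91e-09 to 0.00282. These 3 genes kept their direction in all those fits. *Pparg* at -2.83 lost it without LPS replicate 1 (limma adjusted p = 0.00213), in a range of 5.79e-05 to 0.00259. *Mapk7* at 1.07 was under 2-fold with quantile normalization (0.98) and library totals (0.84).

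In WT astrocytes the comparison of IL-1α, TNFα and C1q against no treatment asks which genes change as astrocytes become reactive. *Cebpd*, *Runx1* and *Cebpb* rose, and none of the other 5 members was called. That is 3 of 8 members, against 11.5% of the 12336 genes tested. *Cebpd* was at 34.9, 42.0 and 53.4 normalized counts in quiescent and 1452, 1427 and 1358 in activated libraries. Its groups were the farthest apart of any member in any comparison, with a log2 fold change of 5.01 ± 0.14 (limma adjusted p = 1.79e-09). *Cebpb* was at 53.6, 45.9 and 64.0 against 462, 459 and 498, all 3 higher, with a log2 fold change of 3.11 ± 0.13 (limma adjusted p = 3.37e-08).

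*Runx1* was at 20.97, 30.2 and 52.3 normalized counts in quiescent and 290.2, 309.5 and 349 in activated astrocyte libraries. All activated libraries lay above all quiescent ones, which spread widely, with a log2 fold change of 3.25 ± 0.26 (limma adjusted p = 2.67e-06). *Spi1*, at 23.3, 40.7 and 60.3 against 43.4, 51.3 and 31.9, overlapped, with a log2 fold change of 0.10 ± 0.32 (limma adjusted p = 0.835). Its sign depends on the tool, since DESeq2 gave -0.07 and edgeR -0.12. Microglia markers were at 489, 632 and 741 CPM summed in quiescent and 543, 786 and 507 CPM in activated libraries, and their 18 tested genes had a median log2 fold change of 0.00. As a percent of quiescent WT microglia, *Runx1* went from 2.98% to 27.1%, while the summed markers were at 2.90% and 2.85% and *Spi1* at 1.79% and 1.81%.

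*Cebpa* was at 34.9, 59.0 and 74.7 normalized counts in quiescent and 76.2, 100.6 and 80.2 in activated astrocytes. The ranges did not overlap, but the log2 fold change of 0.65 ± 0.25 did not pass (limma adjusted p = 0.0626). *Mef2a* was at 452, 444 and 527 against 594, 577 and 594, higher in all 3 by 0.31 ± 0.09 (limma adjusted p = 0.0197), short of both limits. *Maf* was at 58.2, 59.0 and 72.0 against 52.1, 45.6 and 43.1, lower in all 3, with a log2 fold change of -0.42 ± 0.17 (limma adjusted p = 0.0827). *Mef2c* overlapped at 0.02 ± 0.13 (limma adjusted p = 0.934), which was -0.01 with quantile normalization and with library totals. *Maf*, *Mef2a* and *Cebpa* thus had the opposite sign of their LPS change in microglia. The agents and cell types both differ, and the difference between the 2 responses was not tested.

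Among relatives of the members in astrocytes, *Maff* rose with 2.01 ± 0.21 (limma adjusted p = 1.7e-05). *Mafk* at 1.40 lost its call without quiescent replicate 2 (limma adjusted p = 0.00605) and without activated replicates 1, 2 or 3 (0.00797, 0.00353 and 0.00542). It also lost it with no filter (0.00138), quantile normalization (0.00131) and no intensity trend (0.00444), in a range of 7.46e-06 to 0.00797. Of 21 other lineage factors tested, 3 rose and 3 fell, with a median of 0.33 beside 0.01 over all genes. The Krüppel-like factor genes *Klf4* at 2.16 and *Klf6* at 1.19 rose the most. *Sall3*, a relative of *Sall1*, fell with -1.67. *Myb*, a factor gene of blood progenitors, at -2.34 lost its call without quiescent replicate 2 (limma adjusted p = 0.00753) and without activated replicates 1 or 2 (0.00475 and 0.00156). It also lost it with no filter (0.00122), quantile normalization (0.00179) and no intensity trend (0.0065), in a range of 1.45e-08 to 0.00753. *Irf8* was at 0.23 ± 0.28 (limma adjusted p = 0.561) and *Sall1* at -0.06 ± 0.09 (limma adjusted p = 0.607).

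Among partners and brakes tested in astrocytes, the histone deacetylase gene *Hdac7* rose with 1.12. Of 9 receptor and SMAD genes, *Smad3*, a TGF-β signal carrier, rose with 1.70, with a median of -0.25. Of 21 PU.1 target genes, 2 rose and 0 fell, with a median of 0.04. These were *Cd14* at 1.36 and the LPS receptor gene *Tlr4* at 1.38, which lost its call without quiescent replicate 2 (limma adjusted p = 0.00214) and without activated replicates 1, 2 or 3 (0.0041, 0.00397 and 0.00307) and with no intensity trend (0.00201), in a range of 3.48e-05 to 0.0041. Without the intensity trend *Cd14* lost its call (limma adjusted p = 0.00204, range 1.75e-12 to 0.00204).

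Of 14 C/EBP target genes tested in astrocytes, 8 rose and 0 fell, beside 11.5% of all genes called, with a median log2 fold change of 1.59. The part of C/EBP factors in these rises was not tested. The iron-carrier gene *Lcn2* at 6.70 and the chemokine gene *Ccl2* at 6.58 rose the most. Of 5 MEF2 target genes, *Klf4* rose and *Nr4a1* fell with -1.20, with a median of 0.68. *Nr4a1* lost its call without quiescent replicate 2 (limma adjusted p = 0.00134) and without activated replicate 3 (0.00137) and with no intensity trend (0.00145), in a range of 5.08e-08 to 0.00145. Of 14 astrocyte markers tested, 0 rose and 4 fell, with a median of -0.81, and their sum went from 5956, 6440 and 7348 to 5172.5, 5199 and 5234 CPM. The part of that shift in the members' changes was not tested.

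In quiescent astrocytes, *SOD1G93A* against WT called 0 members and 0 of 12271 genes, 0%, with limma. At an unadjusted p under 0.05 there were 2 members and 1068 genes of all, and DESeq2 called 0 members and 7 genes and edgeR 0 and 0. The 1068 became 503 to 1539 when 1 library was left out, and 520 with a replicate block. Over all genes WT replicate 3 stood apart from the other WT libraries (chi-square per degree of freedom 8.97 and 6.50, against 2.03) and *SOD1G93A* replicate 1 from its own group (6.47 and 9.87, against 2.78). Without either library limma also called 0 genes. The 2 members were *Mef2a*, at 476, 462 and 546 normalized counts in WT and 642, 576 and 596 in *SOD1G93A*, and *Mef2c*, at 142, 150.4 and 148 against 198, 187 and 166. Both were higher in all 3 transgenic libraries, with log2 fold changes of 0.29 ± 0.10 and 0.32 ± 0.12 (limma adjusted p = 0.484 and 0.505). The other 6 overlapped, from -0.08 for *Cebpb* to 0.58 for *Spi1*. Microglia markers summed to 489, 632 and 741 CPM in WT and 876, 886 and 654 CPM in *SOD1G93A* libraries, and their median log2 fold change was 0.55 over 19 genes. Of 139 genes tested over the lists, 0 were called with limma, 1 with DESeq2 and 0 with edgeR, and 34 had an unadjusted p under 0.05. *Irf8* was at 0.73 ± 0.25 (limma adjusted p = 0.484) and *Sall1* at -0.11 ± 0.11 (limma adjusted p = 0.788).

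In activated astrocytes, *SOD1G93A* against WT called 0 members, against 0.645% of 12098 genes, which is 78 genes and was 1 gene without the intensity trend. With limma 3 members and 2464 genes of all had an unadjusted p under 0.05, and 2 and 879 an adjusted p under 0.05. Leaving out 1 library gave 391 to 1168 genes at that adjusted p, and fitting without the intensity trend gave 222. DESeq2 and edgeR called 0 members. *Mef2c* was at 104.7, 126 and 139 normalized counts in WT and 193, 173 and 179 in *SOD1G93A* libraries, with a log2 fold change of 0.56 ± 0.12 (limma adjusted p = 0.00368). *Mef2a* was at 512, 498 and 509 against 673, 629.8 and 611, with a log2 fold change of 0.33 ± 0.07 (limma adjusted p = 0.00328). Both were higher in all 3 transgenic libraries but short of both limits, and counting at an adjusted p under 0.05 at any fold would take both. Over 18 alternatives, run with limma, DESeq2 or edgeR, the adjusted p reached 0.0847 for *Mef2a* and 0.0772 for *Mef2c*. *Cebpb* was lower in all 3, at 398, 396 and 427 against 330.4, 389 and 346, with a log2 fold change of -0.20 ± 0.08 (limma adjusted p = 0.152).

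The other 5 members overlapped in that comparison, from -0.27 for *Spi1* to 0.24 for *Maf*. The depth differed between the groups, with 5047999 to 6768201 reads in WT and 2135439 to 3929272 in *SOD1G93A* libraries, and its part in the result was not tested. Microglia markers summed to 543, 786 and 507 CPM in WT and 636, 452 and 495 CPM in *SOD1G93A* libraries. Of 138 genes tested over the lists, 1 was called, the neuron marker gene *Dcx*, which fell. Its call was lost without the intensity trend (limma adjusted p = 0.0121) and without WT activated replicate 1 (0.00328). *Irf8* was at -0.37 ± 0.21 (limma adjusted p = 0.337) and *Sall1* at -0.10 ± 0.08 (limma adjusted p = 0.543).

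Whether the transgene's effect differs between quiescent and activated astrocytes was tested as an interaction in the 12 astrocyte libraries, with limma on log2 CPM. It passed an adjusted p under 0.05 for 0 members, against 0.201% of 12416 genes, with 0 members at an unadjusted p under 0.05 and 0 with edgeR. The 0.201% is 25 genes, which became 13 to 58 when 1 library was left out. The lowest p among the members was for *Spi1*, with an interaction of -0.87 ± 0.47 (limma adjusted p = 0.66). For *Mef2c* it was 0.23 ± 0.17 (limma adjusted p = 0.748) and for *Mef2a* 0.03 ± 0.12 (limma adjusted p = 0.965). So the genotype differences of both MEF2 genes, which were not called in either state, were not shown to differ between the states.

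Across the 21 libraries the genes nearest to each member were found by Pearson's r of log2(CPM + 1) among 11220 genes, as a description with no test. The libraries share cell type and condition, so r mostly reflects the 7 conditions. The nearest genes were *Il10ra*, *Lgals3* and *Ctss* for *Spi1* (r = 0.9975, 0.997 and 0.997), and *Mapkapk2*, *Cybb* and *Sh3bp5* for *Maf* (0.993, 0.993 and 0.993). They were *Tgfbr2*, *Serinc3* and *Kcnj2* for *Mef2a* (0.990, 0.989 and 0.9875), and *Mtus1*, *Mbnl1* and *Cspg4* for *Mef2c* (0.980, 0.9745 and 0.973). For *Runx1* they were *Gcnt2*, *Plec* and *Arpc1b* (0.998, 0.992 and 0.990), and for *Cebpa* *Ctsd*, *Dusp3* and *Lgmn* (0.994, 0.9915 and 0.991). For *Cebpb* they were *Cited2*, *Tgif1* and *Gch1* (0.9925, 0.990 and 0.990), and for *Cebpd* *Creb3l1*, *Wisp1* and *Insig2* (0.989, 0.978 and 0.971). Among the members, *Mef2a* and *Cebpa* were closest (r = 0.982), and *Maf* and *Cebpd* farthest (r = -0.3185).

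The members lie at separate places of the genome, GRCm38. *Cebpa*, *Cebpb* and *Cebpd* have 1 exon block each, while *Runx1*, at chr16:92601466-92826149, spans 224684 bases. Exons of *Cebpb* share 312 bases, 20.7% of its length, with *Tmem189*, and those of *Cebpd* share 562 bases, 15.0%, with *Spidr*, both on the opposite strand. *Tmem189* was at a log2 fold change of 0.08 in WT microglia after LPS and *Spidr* at 0.30 in WT astrocytes after cytokines, and neither was called. The libraries were strand-specific.

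Promoters of members that moved are shown because *Cebpb* rose where *Cebpa*, *Mef2a* and *Mef2c* fell. RefSeq sequences of GRCm38.p6 held 8 starts for 5 of the 8 members, *Cebpa*, *Cebpb*, *Mef2a*, *Mef2c* and *Runx1*, with none for *Spi1*, *Maf* and *Cebpd*. The 250 bases before each start were searched on both strands for C/EBP (TTGCNNAA), PU.1 (GAGGAA), RUNX (TGTGGT), MEF2, AP-1 (TGANTCA), CRE (TGACGTCA), NF-κB, STAT (TTCNNNGAA) and TATA box (TATAAA) letters. Of all 32851 promoters of that length, 9.56%, 23.3%, 14.0%, 0.508%, 6.75%, 1.55%, 1.21%, 7.02% and 12.4% hold them in that order. A match is a description of letters, not a site. Capitals below mark matches, and positions count back from the start.
*Cebpb*, chr2:167688665-167688914, + strand: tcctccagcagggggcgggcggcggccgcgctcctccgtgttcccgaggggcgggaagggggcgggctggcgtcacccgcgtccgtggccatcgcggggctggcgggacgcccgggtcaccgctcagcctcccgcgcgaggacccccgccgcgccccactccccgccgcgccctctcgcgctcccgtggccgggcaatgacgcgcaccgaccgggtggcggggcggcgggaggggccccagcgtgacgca
*Cebpa*, chr7:35119043-35119292, + strand: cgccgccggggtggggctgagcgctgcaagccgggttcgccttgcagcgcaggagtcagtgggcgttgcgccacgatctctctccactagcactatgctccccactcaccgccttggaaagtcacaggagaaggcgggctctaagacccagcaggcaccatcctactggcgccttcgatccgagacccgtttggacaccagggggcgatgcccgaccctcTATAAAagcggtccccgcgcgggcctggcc
*Mef2a*, chr7:67372859-67373108, - strand: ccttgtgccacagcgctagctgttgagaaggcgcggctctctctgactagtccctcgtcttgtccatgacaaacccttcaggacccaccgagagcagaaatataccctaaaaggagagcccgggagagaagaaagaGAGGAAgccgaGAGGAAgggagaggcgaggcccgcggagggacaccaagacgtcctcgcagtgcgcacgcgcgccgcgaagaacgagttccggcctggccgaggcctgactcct
*Mef2c*, chr13:83573357-83573606, + strand: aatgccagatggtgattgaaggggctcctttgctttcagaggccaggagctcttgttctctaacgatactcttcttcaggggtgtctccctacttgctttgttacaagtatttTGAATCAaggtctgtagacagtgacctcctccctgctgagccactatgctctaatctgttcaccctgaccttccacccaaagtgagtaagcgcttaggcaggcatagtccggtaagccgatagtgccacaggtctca

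The *Cebpb* window has a GC content of 81.6%, against a median of 52.4% over all promoters, and holds 0 of the searched motifs. The *Cebpa* window, at 66.4% GC, holds a TATA box at -30. The *Mef2a* window holds 2 PU.1 matches, at -114 and -103, which do not overlap. The *Mef2c* window shown is 1 of 3 starts and holds an AP-1 match at -137. The first 2 starts of *Mef2c* each hold a PU.1 match, at -122 and -186, and a TATA box match, and 1 of them a STAT match at -157. Of the 2 starts of *Runx1*, 1 holds a PU.1 match at -46.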

How the data were processed

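Strand-specific bulk RNA-seq of 24 samples was assigned to conditions from the labels. Per the labels, the authors used STAR 2.7.3a on mm10, then RSEM, and deposited 6 tables, 1 per comparison, whose per-library values are a signal, normalized counts set by DESeq2 size factors separately per table. Dividing each library by its smallest value above 0 gave whole reads for 100% of the values, within a relative tolerance of 1e-06. Values of 21 libraries were used, and the authors' own test columns were not. Limma 3.58.1 with an intensity trend (R 4.3.3) was run within each table on log2(normalized count + 1), for genes with a mean of at least 10, with Benjamini-Hochberg adjustment over all genes. The interaction used log2 CPM (TMM). DESeq2 1.42.0, edgeR 4.0.16, other scalings, filters and pseudocounts, a replicate block and leaving out each library were alternatives, and the tests were tested on simulated data. Exon lengths are those of all exons of a gene joined, from GENCODE M21. Depth was 2016139 to 11570122 reads, and floors cover counting error only. The members and lists were chosen with earlier results of these data known. Named are the 8 members, called family members, the 2 largest rises and falls per list, *Irf8*, *Sall1* and the 3 genes most like each member. Some results of the relatives and of the partners are not reported here.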

Additional observations from a re-analysis of the deposited data

Results flagged for a closer look

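*Aldoc*, an enzyme gene on the astrocyte marker list, passed an adjusted p under 0.05 in the interaction of genotype and state in the 12 astrocyte libraries. It did not pass under most alternatives, so a difference between the states is not settled. The interaction was 0.67 ± 0.13 (SE, limma adjusted p = 0.0408 and edgeR adjusted p = 0.0451). Mean normalized counts were 2120 in WT and 1703 in *SOD1G93A* quiescent astrocytes (log2 fold change -0.32), and 457 and 588 in the activated ones (0.37). The adjusted p lay between 0.0205 and 0.157 over 15 alternatives, of which 5 passed. Those that did not pass include library totals (0.0605) and leaving out WT quiescent replicate 2 (0.116), *SOD1G93A* quiescent replicates 2 or 3 (0.0563 and 0.0891), WT activated replicates 1 or 3 (0.157 and 0.105) or *SOD1G93A* activated replicates 1, 2 or 3 (0.127, 0.0549 and 0.111).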

How the results depend on the processing

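The counts of called members stayed within 1.5 times the reported count in all 6 comparisons and the interaction under the alternatives run, except that an adjusted p under 0.05 at any fold took 2 members in *SOD1G93A* against WT activated astrocytes. Of the other values (single genes, levels and counts over all genes), 2829 kept direction and side of the threshold, or for a count stayed within 1.5 times. Another 114 lost a call or were lower counts, 18 gained a call or were higher counts, 50 levels moved by more than the spread between replicates with size factors over all libraries, and 45 changed sign. The values that changed sign belong to genes not called, and the cause was not tested.

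After LPS in WT microglia, quantile normalization gave *Spi1* -0.19 and *Runx1* -0.18, and library totals, chosen after seeing the data, gave -0.11, -0.16 and *Cebpd* -0.16. In *SOD1G93A* LPS against WT quiescent microglia these gave *Spi1* -0.21 and -0.17, and *Runx1* -0.12 and -0.10. In WT astrocytes with cytokines, *Spi1* was -0.07 with DESeq2 and -0.12 with edgeR, and *Mef2c* -0.01 and -0.01 with quantile normalization and library totals. In *SOD1G93A* against WT activated astrocytes *Cebpa* was -0.01 with library totals. In the interaction *Maf* was 0.04 and *Cebpa* 0.02 with edgeR, and *Mef2a* -0.02 with library totals.

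Leaving out 1 library at a time gave ranges of -0.05 to 0.21 for *Runx1* and -0.08 to 0.24 for *Cebpd* after LPS in WT microglia. For *SOD1G93A* against WT with LPS they were -0.13 to 0.02 for *Spi1*, -0.05 to 0.16 for *Maf*, -0.09 to 0.17 for *Runx1* and -0.11 to 0.11 for *Sall1*. For cytokines in WT astrocytes they were -0.25 to 0.42 for *Spi1* and -0.08 to 0.13 for *Mef2c*. For *SOD1G93A* against WT quiescent astrocytes they were -0.13 to 0.39 for *Cebpa*, -0.20 to 0.03 for *Cebpb* and -0.01 to 0.28 for *Cebpd*, and for activated ones -0.46 to 0.08 for *Spi1* and -0.05 to 0.15 for *Cebpa*. For the interaction they were -0.11 to 0.11 for *Maf*, -0.04 to 0.08 for *Mef2a* and -0.37 to 0.15 for *Cebpa*.

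Among all genes, 78 were called in *SOD1G93A* against WT activated astrocytes and 1 without the intensity trend. The interaction counted 25, and 58, 49 and 38 without WT quiescent replicates 1 or 3 or *SOD1G93A* quiescent replicate 1, 13 without WT quiescent replicate 2 or WT activated replicate 1, and 15 without *SOD1G93A* activated replicates 1 or 3. The replicates share only a number across groups. With a replicate block, members called were 5, 5, 3 and 0 and genes called 2201, 1588, 1423 and 100, for LPS in WT, *SOD1G93A* LPS against WT quiescent microglia, cytokines in WT and genotype in activated astrocytes, and the interaction counted 15. Calls that the block did not make were *Pparg* (limma adjusted p = 0.00123) after LPS in WT microglia, *Spic* (0.00124), *Pparg* (0.00259) and *Dcn* (0.00368) in *SOD1G93A* LPS against WT quiescent microglia, and *Aldoc* (0.112) in the interaction, beside ranges over the alternatives of 1.31e-05 to 0.00123, 7.94e-08 to 0.00504, 5.79e-05 to 0.00259, 4.11e-07 to 0.00789 and 0.0205 to 0.157. Depth was 2016139 to 11570122 reads, and its effect on the results was not tested.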

Other observations

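Other cell types were looked for by marker lists in every culture, and their part in the results was not tested. Of 11 oligodendrocyte lineage markers, 10 had more than 3 reads in a library of quiescent WT microglia, and their sum was 1349, 1375 and 1389 CPM. Of this the proteoglycan gene *Cspg4* held 1229 CPM on average, with *Mog* at 0 reads. *Cspg4* fell after LPS in WT microglia with a log2 fold change of -4.01 ± 0.08 (limma adjusted p = 1e-10), and *Mbp*, a myelin gene, with -2.21, as 2 of 6 genes tested, with a list median of 0.20. In quiescent WT astrocytes the same list summed to 3149, 3063 and 2972 CPM, with *Olig1* the most abundant at 1799 CPM, and in activated WT astrocytes to 1128, 1163 and 1102 CPM. There 4 of 9 genes tested fell, with a median of -0.60, *Gpr17* with -3.86 and *Olig1* with -1.74 the most.

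Neuron markers summed to 19.2, 16.1 and 17.3 CPM in quiescent WT microglia and to 965, 997 and 769.8 CPM in quiescent WT astrocytes, where *Map2* held 872 CPM. In activated WT astrocytes 7 were tested, with a median of 0.97, and *Map2* fell with -1.15, *Nefl* was higher by 2.95 and *Tubb3* by 1.03. *Nefl* lost its call in 7 of 17 alternatives and *Tubb3* in 5 of 18, with limma adjusted p up to 0.00855 and 0.00302. *Dcx* was lower in activated *SOD1G93A* than WT astrocytes, with -1.13 ± 0.16 (limma adjusted p = 9.01e-05), and lost its call without the intensity trend (0.0121) and without WT activated replicate 1 (0.00328), in a range of 1.58e-06 to 0.0121.

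Endothelial markers summed to 68.5, 76.8 and 76.2 CPM in quiescent WT microglia, with *Cldn5* and *Tek* at 0. After LPS *Flt1* fell with -3.47 and *Pecam1* rose with 4.17 in WT microglia, while *Kdr* at 1.01 kept its call in 8 of 18 alternatives. In activated WT astrocytes *Flt1* rose with 4.02. Pericyte and fibroblast markers summed to 12.6, 6.27 and 5.76 CPM in quiescent WT microglia, and *Dcn* rose after LPS with 4.98. In activated WT astrocytes *Lum* rose with 5.42 and *Dcn* with 4.14.

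Border macrophage and monocyte markers summed to 174, 189 and 190.5 CPM in quiescent and 507, 407 and 387 CPM in LPS-treated WT microglia, with *Clec12a* the most abundant and *Cd163* and *Lyve1* at 0. *Ly6c2* rose with 4.58 and *Ms4a7* with 2.60. Granulocyte and lymphocyte markers summed to 0.295, 1.18 and 0.576 CPM in quiescent WT microglia. Of 11 astrocyte markers tested in WT microglia after LPS, 2 rose, *Gja1* with 2.72 and *Slc1a2* with 2.28, and 9 were not called, with a median of -0.06. Their most abundant gene, *Gfap*, was at 56.7 CPM in quiescent and 48.1 CPM in LPS-treated WT microglia. In *SOD1G93A* LPS against WT quiescent microglia *Pecam1* (4.04), *Dcn* (4.31) and *Ly6c2* (3.94) were called and lost the call in 5 of 17, 12 of 17 and 1 of 14 alternatives. In that comparison *Ms4a7* (2.40), *Gja1* (2.93) and *Slc1a2* (2.07) rose too, and *Flt1* (-3.31), *Cspg4* (-2.95) and *Mbp* (-1.98) fell.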
